A study of Homo sapiens with 6 samples.

Results

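MYC, MAX and their partners form a network of transcription factors that share a basic helix-loop-helix leucine zipper. MYC and its paralogs MYCN and MYCL pair with MAX on E-box DNA and mostly activate genes of growth and metabolism. MXD1, MXD3, MXD4, MXI1 and MNT compete for MAX and recruit SIN3 and histone deacetylases to repress genes at the same sites, and MLX is the partner that stands in for MAX in a parallel branch with MLXIP. The 10 genes described here, namely MYC, MYCN, MYCL, MAX, MXD1, MXD3, MXD4, MXI1, MNT and MLX, were taken by gene symbol from the 59653 genes of the count table. All 10 had a row, and 9 of them passed the filter on low counts, as did 19008 genes in all.

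The libraries came from SK-OV3 (labelled SKOV3, genotype wildtype), a human ovarian cancer cell line that lacks p53. Cells were transfected with a non-targeting siRNA pool (siControl, n = 3) or with a pool of siRNAs against the lncRNA PVT1 (siPVT1, n = 3), and RNA was taken after 48 h. The pool is the only reagent against PVT1 in the design, so the lowering of PVT1 and other effects of the pool cannot be told apart. The comparison asks which genes change when PVT1 is lowered, and PVT1 lies next to MYC on chromosome 8.

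Total counts per library lay between 28383171 and 35059576. PVT1 itself was lower in each siPVT1 library (2062 to 2350 normalized counts) than in any siControl library, where it had 3298 to 4090 (log2 fold change −0.72, SE 0.0967, adjusted p = 0.000342). SE is the standard error. Here and below, normalized counts are counts scaled by TMM factors, fold changes are siPVT1 over siControl, and adjusted p-values are from the quasi-likelihood test of edgeR, adjusted by Benjamini-Hochberg over all 19008 genes. A gene is called higher or lower at an adjusted p under 0.05, and past both thresholds where the log2 fold change is also at least 1 in size. The siPVT1 libraries differed more among themselves (chi-square per degree of freedom 9.48 to 50.9, highest between replicates 1 and 3) than the siControl libraries did (1.76 to 6.15). Of the epithelial markers, KRT8 and KRT18 were abundant (means of 8575 and 8551 normalized counts in siControl), while EPCAM and CDH1 were low (96.7 and 27.1). All 9 epithelial markers were tested, and 4 were higher and 2 lower in siPVT1, against 29.5% and 28.4% of all tested genes. KRT19 alone was higher past both thresholds (log2 fold change 2.30, SE 0.247). Of 10 markers of leukocytes, endothelium and fibroblasts, CD3E was at 0 in every library and PTPRC and DCN had at most 2 counts. The summed normalized counts of the 10 were 2157 to 2194 in siControl and 8909 to 11185 in siPVT1, mostly from CDH5. Of the 6 tested, 4 were higher and 1 (CD14) lower, against 29.5% higher and 28.4% lower among all tested genes. The 4 were CDH5, PECAM1, VWF and PDGFRB, all higher past both thresholds, as were 11.8% of all tested genes. The part of these markers in the results below was not tested. In bulk RNA, fewer cells of a kind and less RNA per cell cannot be told apart.

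Across the network, the activator MYC fell, its partner MAX fell less, and 4 of the 5 repressors rose, led by MXI1. Of the 9 tested members, 5 were higher in siPVT1 (MYCL, MXD3, MXD4, MXI1 and MNT), 3 were lower (MYC, MAX and MXD1), and MLX did not pass the test. Among all tested genes, 29.5% were called higher and 28.4% lower, 57.9% together, so the members are to be read against a comparison in which most genes were called. The median log2 fold change was 0.74 over the 9 members and 0.0014 over all genes. With scaling by the total count in place of TMM, the median of all genes was −0.15 and 39.4% of the calls were higher in place of 51.0%, while the 5 higher and 3 lower members were again called. MXI1 and MXD3 were higher and MYC was lower past both thresholds, where 11.8% of all genes were higher and 9.64% lower. In all 9 tested members the siPVT1 libraries lay on one side of the siControl libraries, as in 65.6% of all tested genes. For a single gene of 3 libraries against 3, the two-sided exact permutation test gave p = 0.1 in each of the 9, the smallest p it allows.

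**Figure D1:**
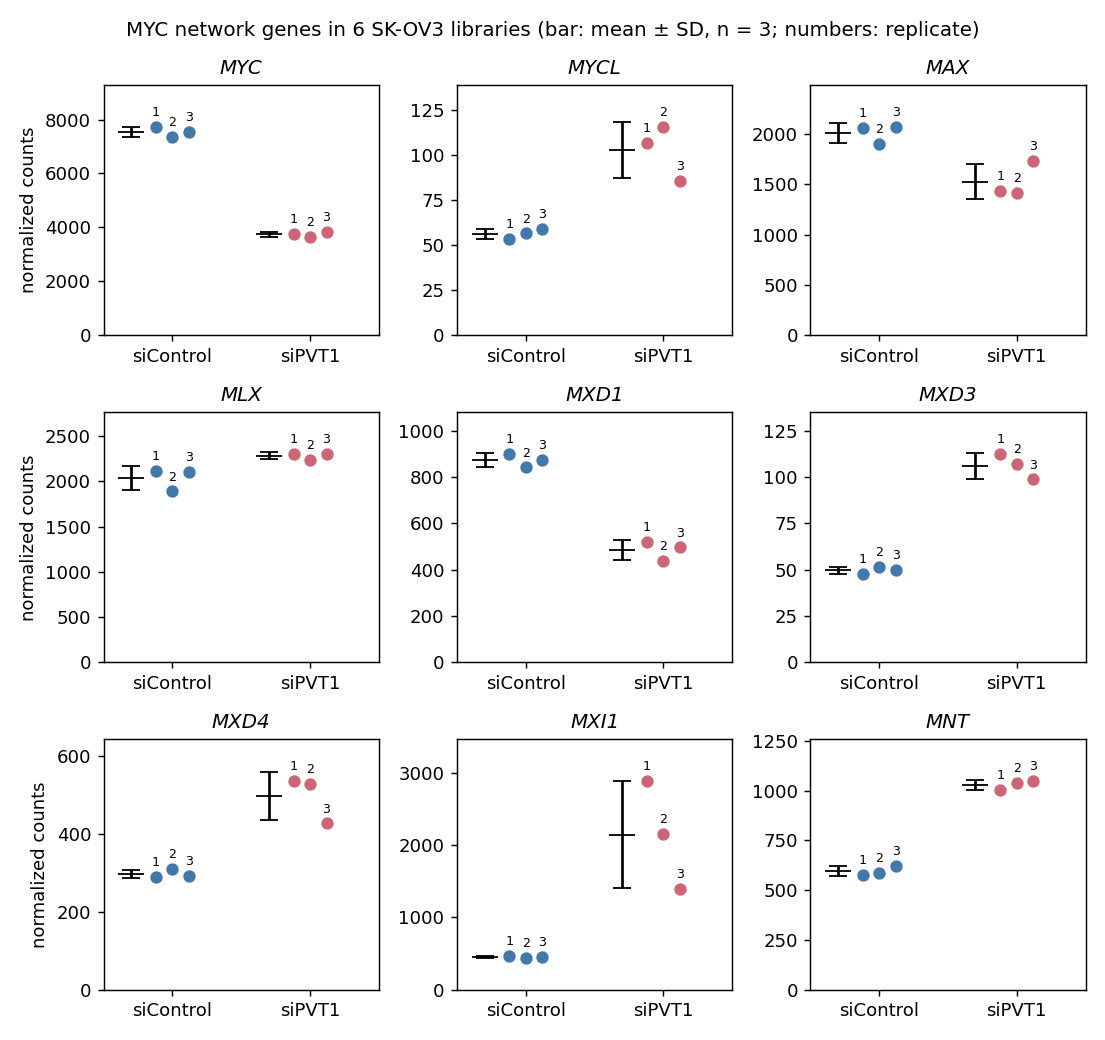
Normalized counts (vertical axes, from 0) of the 9 tested members in the 3 siControl and 3 siPVT1 libraries, 1 point per library with its replicate number, and the mean ± SD (n = 3) as a black bar to the left. MYC, MAX and MXD1 sit lower in siPVT1, MYCL, MXD3, MXD4, MXI1 and MNT sit higher, and the MXI1 points spread from 1393 to 2884 in siPVT1.

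MYC (chr8:127735434-127742951 in GRCh38, plus strand) encodes the activator that gives the network its name. It had 7736, 7352 and 7554 normalized counts in the siControl libraries, given in the order of replicates 1, 2 and 3 as for all members, against 3761, 3634 and 3825 in siPVT1. Each siPVT1 library was between 48.2% and 50.7% of the siControl mean, so the fall was even across replicates. The means were 7547 ± 193 and 3740.0 ± 97.2 (SD, n = 3 each, log2 fold change −1.01, SE 0.0546, adjusted p = 3.7e-06). The distance from the fold threshold was smaller than the standard error. With scaling by the total count the value was −1.16. An antisense transcript that overlaps MYC exons, CASC11, had at most 12 counts in any library.

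The other MYC paralogs contributed little RNA. MYCN (chr2:15940550-15947007) had 0, 2 and 0 counts in siControl and 1, 0 and 0 in siPVT1, at or under the floor of 3 counts in every library, so no fold change is given. MYCL (chr1:39895428-39902256, minus strand) had 53.3, 56.6 and 59.1 normalized counts in siControl and 107, 116 and 85.5 in siPVT1. MYCL thus moved opposite to MYC, with a log2 fold change of 0.86 (SE 0.167, adjusted p = 0.00251), from a level so low that MYC still made up 97.2% ± 0.486 (SD, n = 3) of the MYC family in siPVT1 when each gene was taken per kilobase, against 99.2% ± 0.0644 in siControl.

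MAX (chr14:65006174-65102695, minus strand), the obligate partner of the MYC proteins and a partner of the MXD proteins, had 2065, 1900.3 and 2074 normalized counts in siControl and 1437, 1415 and 1731 in siPVT1. The siPVT1 libraries were at 70.3% to 86.0% of the siControl mean, with replicate 3 nearest to siControl. MAX thus changed by −0.40 on the log2 scale (SE 0.0903, adjusted p = 0.00563). FNTB, which overlaps MAX exons on the opposite strand, had 429 to 449 normalized counts in siControl and 296 to 343 in siPVT1, and its part in the counts of MAX was not tested.

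MXI1 (chr10:110207605-110287365, plus strand), a repressor of the MXD family, changed most among the members. It had 466, 445 and 452 normalized counts in siControl and 2884, 2157 and 1393 in siPVT1. The lowest siPVT1 library was 307% of the siControl mean and the highest 635%. The means were 454 ± 10.8 and 2145 ± 746 (SD, n = 3 each, log2 fold change 2.24, SE 0.235, adjusted p = 9.05e-05), which is 4.72-fold. The coefficient of variation of MXI1 was 34.8% in siPVT1 and 2.37% in siControl, and among the 9 tested members only MXI1 exceeded 20% in either group. Without siPVT1 replicate 1 the log2 fold change was 1.95, and without replicate 3 it was 2.46. The annotation lists 38 transcripts of MXI1 and the counts are given per gene, so forms of MXI1 from different start sites are not told apart.

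MNT (chr17:2384073-2401104, minus strand), a repressor that many cell types express throughout the cell cycle, had 575, 588 and 624 normalized counts in siControl and 1002, 1038 and 1049 in siPVT1. Its libraries varied little within either group, and the means of 596 ± 25.0 and 1029.6 ± 24.3 (SD, n = 3 each) gave a log2 fold change of 0.79 (SE 0.0689, adjusted p = 3.55e-05).

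MXD4 (chr4:2247432-2262109, minus strand) and MXD3 (chr5:177301461-177312757, minus strand), are both MAX-binding repressors and had fewer counts. MXD4 had 289, 309 and 291 normalized counts in siControl and 536, 528 and 427 in siPVT1 (log2 fold change 0.74, SE 0.108, adjusted p = 0.000532). MXD3 had 47.6, 51.5 and 49.9 in siControl and 112, 107 and 98.7 in siPVT1 (log2 fold change 1.09, SE 0.144, adjusted p = 0.000321). The lowest siPVT1 library of each gene was above the highest siControl library. MXD3 exons overlap those of RAB24 on the same strand, and RAB24 had 267 to 348 normalized counts in siControl and 508 to 673 in siPVT1, so reads of both genes could be divided between them. With scaling by the total count, the log2 fold change of MXD3 was 0.94, under the fold threshold.

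MXD1 (chr2:69897688-69942945, plus strand), a MAX-binding repressor linked to differentiation, moved against the other repressors. It had 899.9, 842 and 875 normalized counts in siControl and 519, 437 and 496 in siPVT1. All siPVT1 libraries were below 60% of the siControl mean, at 50.1% to 59.5%, and the change was −0.85 on the log2 scale (SE 0.0854, adjusted p = 7.24e-05). SNRNP27, which overlaps MXD1 exons on the same strand, had 920.3 to 1094 normalized counts in siControl and 898 to 1004 in siPVT1. MXD1 had about the size of change of MXD4 and MNT with the opposite sign.

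MLX (chr17:42567072-42573239, plus strand) had 2117, 1888 and 2102 normalized counts in siControl and 2299.6, 2236 and 2302 in siPVT1. Its log2 fold change of 0.16 (SE 0.0655, adjusted p = 0.0626) did not pass the test, although the groups did not overlap, and was the smallest in size of the 9 tested members. PSMC3IP, which overlaps MLX exons on the opposite strand, had 514 to 587 normalized counts in siControl and 267 to 568 in siPVT1.

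**Figure D2:**
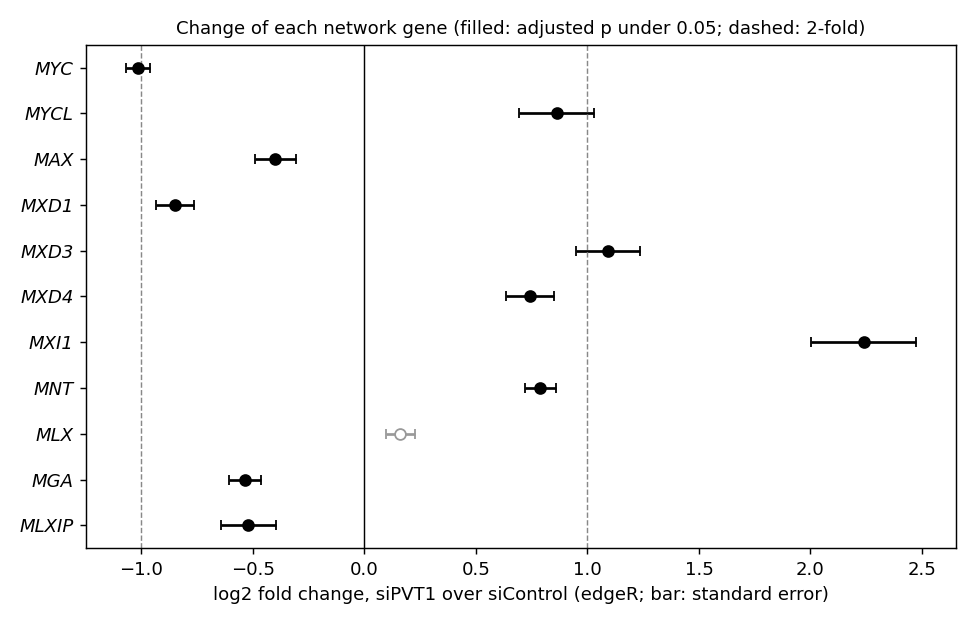
Log2 fold change (horizontal axis, siPVT1 over siControl) with its SE for the 9 tested members and for MGA and MLXIP. Filled points have an adjusted p under 0.05, the open point is MLX, and the dashed lines mark a 2-fold change. MXI1 at 2.24 lies farthest to the right and MYC at −1.01 farthest to the left.

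The members' levels were compared with each other as length-scaled counts (CPM per kilobase). These are counts divided by the library size scaled by its TMM factor and by the length of the longest annotated transcript. In siControl the order was MYC (65.2 ± 1.66), MLX (25.3 ± 1.59), MAX (20.5 ± 0.994), MXD1 (5.02 ± 0.169), MXI1 (4.20 ± 0.0996), MNT (3.88 ± 0.163), MXD4 (2.25 ± 0.0831), MXD3 (0.700 ± 0.0277) and MYCL (0.514 ± 0.0265, SD, n = 3 each). The ranges of neighbours in this order did not overlap. The order of the repressors depends on the length used: as a share of the summed repressor level in siControl, MNT came before MXD1 and MXI1 with the mean transcript length (35.6%, 29.7% and 19.5%), and MXD1 before MNT and MXI1 with no division by length (38.5%, 26.3% and 20.02%). In siPVT1 MYC remained first at 32.3 ± 0.839, followed by MLX at 28.3 ± 0.469, MXI1 at 19.9 ± 6.91 and MAX at 15.6 ± 1.80 (SD, n = 3 each). MXI1 and MAX did not differ beyond their spread there, since MXI1 ranged from 12.9 to 26.7 and MAX from 14.4 to 17.6. With the longest transcript, MXD1 stood at 2.79 ± 0.243 in siPVT1, against 6.72 ± 0.158 for MNT and 3.77 ± 0.462 for MXD4 (SD, n = 3 each). With no division by length, MXD1 and MXD4 made up like shares of the repressor level in siPVT1 (11.6% and 11.8%).

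Summed over the family, the MYC genes stood at 67.3, 64.0 and 65.8 length-scaled counts in siControl and 33.5, 32.4 and 33.8 in siPVT1. The summed level of MXD1, MXD3, MXD4, MXI1 and MNT was 16.1, 15.9 and 16.2 in siControl and 41.9, 34.8 and 27.2 in siPVT1. The ratio of the MYC family to these repressors was 4.17, 4.03 and 4.06 in siControl and 0.799, 0.933 and 1.24 in siPVT1. It was thus close to 1 in the siPVT1 libraries, 4.13 times lower on average than in siControl. MXI1 made up 26.2% ± 0.511 of the repressor level in siControl and 56.2% ± 8.27 in siPVT1, and MXD1 31.3% ± 0.824 and 8.29% ± 1.91 (SD, n = 3 each). The ratio of MYC to MAX was 3.18 ± 0.0959 in siControl and 2.09 ± 0.189 in siPVT1 (SD, n = 3 each). The ratio of the MYC family to the repressors was 3.84 times lower in siPVT1 with the mean transcript length and 3.63 times with no division by length. MGA, a further MAX partner described below, is not in the repressor sum and was lower in siPVT1. These ratios are of RNA, with lengths that depend on the annotation, and are given as a description with no test.

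**Figure D3:**
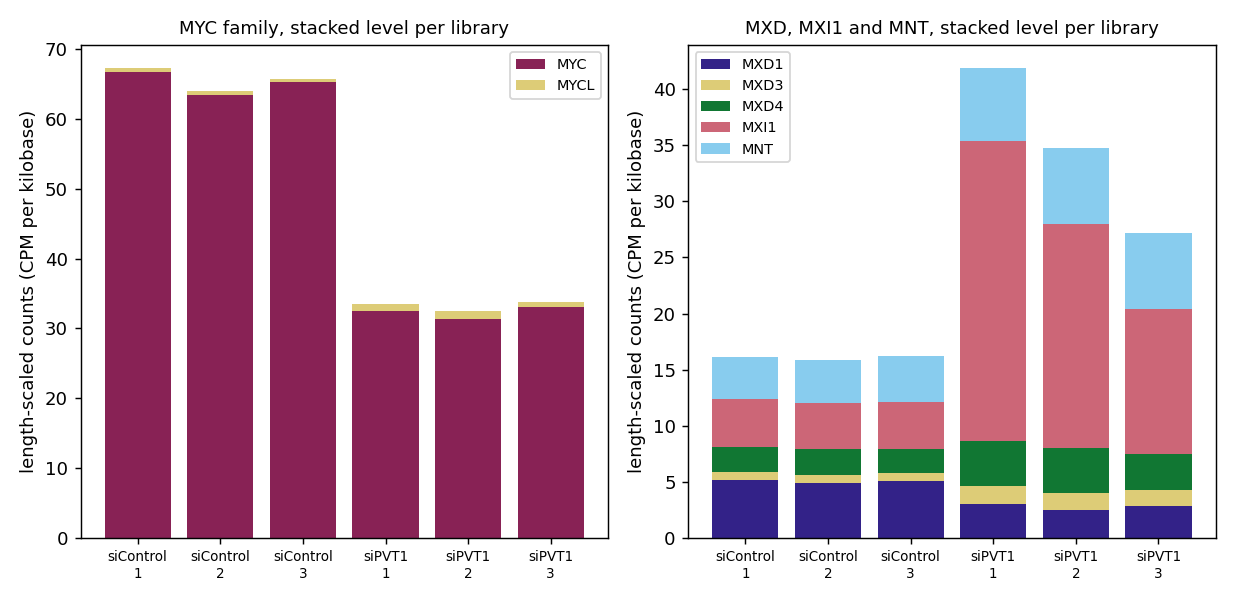
Stacked levels in each of the 6 libraries, in length-scaled counts (vertical axes, from 0), of MYC and MYCL on the left and of MXD1, MXD3, MXD4, MXI1 and MNT on the right. MYCN is left out because it had at most 2 counts. The MYC family is lower in all siPVT1 libraries (32.4 to 33.8 against 64.0 to 67.3), and the repressor stack is higher (27.2 to 41.9 against 15.9 to 16.2), mostly through MXI1.

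The proteins of the network bind the E-box, and their own promoters were searched for it. In RefSeq (GRCh38.p14), 12 promoters were listed for the 9 members other than MYC, each from 250 bases before to 50 bases after a start site. The motif CACGTG, which reads the same on both strands, was found in 3 of the 12, those of MLX, MNT and MXD4, and in 7.26% of all 35116 promoters. Its inner part ACGTG, the core also bound by hypoxia-inducible factors, was searched on both strands, so that each CACGTG is also a match. It was found in those 3, in 1 of 2 MAX promoters and in 1 of 3 MXI1 promoters, and in 21.4% of all promoters. Of the members with a match, MNT, MXD4 and MXI1 were higher, MAX was lower and MLX did not pass the test. Of the tested members searched without a match, MYCL and MXD3 were higher and MXD1 was lower. No relation between matches and changes was tested. Each match is given 5′ to 3′ on the strand of the gene with the motif in capitals. In MXI1 the capitals are ACGTG read on the other strand.
MNT: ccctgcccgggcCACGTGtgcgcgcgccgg
MXD4: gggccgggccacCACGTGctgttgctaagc
MLX: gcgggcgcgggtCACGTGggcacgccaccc
MXI1: gtggccaccagtCACGTaagcagagagcc
MAX: aggtggagagcgACGTGagtcctggggct
The MNT stretch (chr17:2401236-2401265, minus strand) has its motif 193 bases before the start, that of MXD4 (chr4:2262330-2262359, minus strand) 238 bases before, and that of MLX (chr17:42567038-42567067, plus strand) 50 bases before. The MXI1 match (chr10:110210106-110210134, plus strand) lies 113 bases before the middle one of its 3 listed starts, and the MAX match (chr14:65102289-65102317, minus strand) 22 bases before a start. A match is a description of these letters and not a bound site. No match was found in the listed promoters of MYCN, MYCL, MXD1 and MXD3.

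The remaining bHLH zipper factors of the extended network included a further MAX partner and the partners of MLX. MGA, which pairs with MAX in a repressive complex, had 3475 to 3555 normalized counts in siControl and 2262 to 2655 in siPVT1 (log2 fold change −0.53, SE 0.0711, adjusted p = 0.000336). MLXIP, the glucose-sensing partner of MLX also called MondoA, had 2852 to 2996 and 1685 to 2449 (log2 fold change −0.52, SE 0.122, adjusted p = 0.00669). MLXIPL had at most 2 counts in any library and was not tested. Of 11 tested genes in the list of 12 that holds these and other E-box binders, 4 were higher and 6 lower, against 29.5% and 28.4% of all genes, with a median log2 fold change of −0.52 against 0.0014 over all genes. SREBF1 and SREBF2, regulators of lipid and sterol synthesis, both rose by 1.40 on the log2 scale (SEs 0.0644 and 0.0723). TFEB, a regulator of lysosomal genes, rose by 1.27, and TFEC, TFAP4 and USF2 had log2 fold changes of −1.92, −1.27 and −1.24.

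TXNIP and ARRDC4 encode arrestin-related proteins that MLX and MLXIP induce in response to glucose. TXNIP had 4468, 4118 and 4406 normalized counts in siControl and 1917, 1229 and 553 in siPVT1 (log2 fold change −1.82, SE 0.358, adjusted p = 0.00273). ARRDC4 had at most 10 counts in any library, and its adjusted p was 0.399. No relation between TXNIP and MLX or MLXIP was tested.

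Genes of proteins that work with the members are to be read against the 29.5% of all genes called higher and 28.4% called lower. Of 17 coactivators that MYC recruits, 5 were higher and 6 lower, shares near those of all genes, with a median log2 fold change of −0.089. CREBBP, an acetyltransferase, was the only one past both thresholds in size and adjusted p, though not in size without siControl replicate 2 or without siPVT1 replicate 1, with 3527 to 3739 normalized counts in siControl and 1628 to 2013 in siPVT1 (SE 0.0831, adjusted p = 2.77e-05). Of 19 genes of the SIN3 and NCOR corepressors, 12 were higher and 3 lower, with a median of 0.24. SAP30, a SIN3 subunit, rose by 1.09 on the log2 scale (adjusted p = 0.000278). With scaling by the total count, 7 of the 19 were higher in place of 12. Of 23 genes that act on the stability of MYC protein, 8 were higher and 9 lower, not far from the shares of all genes. PIM1, a kinase that phosphorylates MYC, rose by 1.97 (SE 0.121), FBXO32, a ubiquitin ligase subunit, rose by 1.03 (SE 0.141), and USP36, a nucleolar deubiquitinase, had a log2 fold change of −1.27 (SE 0.0582).

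Among 30 genes that MYC is known to activate, 22 were lower and 3 higher in siPVT1, against 28.4% lower and 29.5% higher over all genes. Past both thresholds, 13 were lower and 3 higher, against 9.64% and 11.8% of all genes. The median log2 fold change was −0.67. SRM, the spermidine synthase, had 1971, 1937 and 2064 normalized counts in siControl and 128, 126 and 201 in siPVT1 (log2 fold change −3.70, SE 0.166, adjusted p = 1.68e-06). ODC1, the first enzyme of polyamine synthesis, had 9960 to 10766 in siControl and 4656 to 5204 in siPVT1 (log2 fold change −1.07, SE 0.0660). TFAP4, a factor of the E-box list above, fell with them. The other 10 genes that were lower past both thresholds had log2 fold changes from −1.49 to −1.02.

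The 3 that rose were LDHA, which makes lactate (log2 fold change 1.55, SE 0.0587), the cyclin CCND2 (4.11, SE 0.404) and the telomerase subunit TERT (1.10, SE 0.358). LDHA is also a target of the hypoxia-inducible factors, and TERT had at most 36 counts in any library. The call of TERT was lost in 6 of 12 alternatives, namely with the replicate block (adjusted p = 0.0521), with scaling by the total count (adjusted p = 0.05002), and without siControl replicate 2 or 3 or siPVT1 replicate 1 or 3, with adjusted p between 0.0181 and 0.0934 over the 12 alternatives. Set against the siControl mean of each gene, the median of the 30 genes was −0.94, −0.84 and −0.36 on the log2 scale in siPVT1 replicates 1, 2 and 3, where it lay between −0.08 and 0.04 in the siControl libraries. MYC itself did not differ in that way between the siPVT1 libraries. Of the siPVT1 libraries, replicate 3 had the lowest level of MXI1, MXD4, MXD3 and MYCL and the highest of MAX. MNT and MXD1 were nearest to siControl in replicate 1. With 3 libraries, this is a description of single libraries, and no relation between any member and the 30 genes was tested. Without replicate 3 the median was −0.94.

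Of 11 tested genes in a list of 12 that MYC is known to repress, 4 were higher and 3 lower, near the 29.5% and 28.4% of all genes. Past both thresholds, 4 were higher and 1 lower, against 11.8% and 9.64% of all genes. The median log2 fold change was −0.074. CDKN1B, the CDK inhibitor p27, had 673 to 736 normalized counts in siControl and 1892 to 2529 in siPVT1 (log2 fold change 1.69, SE 0.112, adjusted p = 9.53e-06). CEBPD rose by 1.75 and NDRG1, also a hypoxia gene, by 2.65 on the log2 scale (SEs 0.116 and 0.323), while the matrix protein THBS1 had a log2 fold change of −1.75 (SE 0.0875).

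**Figure D4:**
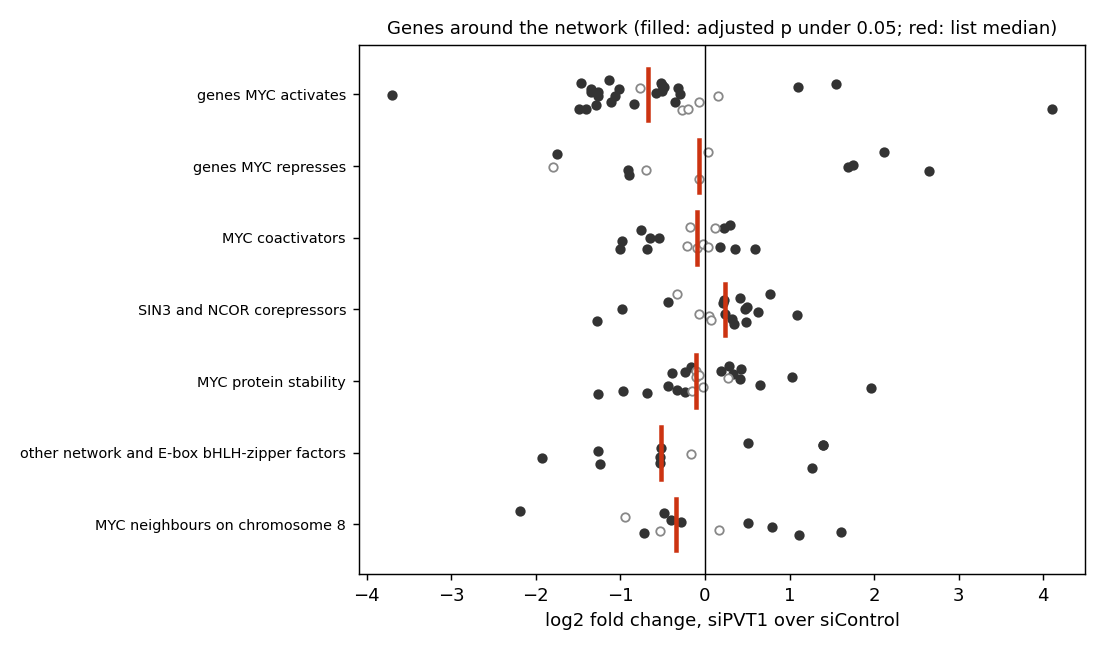
Log2 fold change (horizontal axis, siPVT1 over siControl) of each tested gene of 7 lists around the network, 1 point per gene, filled where the adjusted p is under 0.05, with the list median in red. The points of the genes MYC activates lie mostly to the left (22 lower, 3 higher, median −0.67). Those of the SIN3 and NCOR corepressors lie mostly to the right (3 lower, 12 higher, median 0.24). The E-box factors have a median of −0.52 (6 lower, 4 higher). Every list has points on both sides.

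Of 12 tested neighbours of MYC on chromosome 8 in a list of 17, 4 were higher and 5 lower, against 29.5% and 28.4% of all genes. PVT1, the target of the siRNAs, is 1 of the 5. SQLE, an enzyme of cholesterol synthesis, rose by 1.61 on the log2 scale (SE 0.0714). The lncRNA CASC8 had 27.7 to 35.2 normalized counts in siControl and 57.9 to 76.8 in siPVT1, and the lncRNA CASC19 had 22.9 to 43.4 and 3.34 to 12.2, with log2 fold changes of 1.12 (SE 0.201) and −2.18 (SE 0.479). CCAT1 and CASC21, also listed, were not analysed here.

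Genes that share a name with members were kept apart from them. MYCNOS and MYCNUT were at 0 in all libraries and MYCL-AS1 had at most 3 counts. MYCBP, a MYC-binding protein, had a log2 fold change of −0.40 (SE 0.103, adjusted p = 0.0104), and MYCBP2 was at −0.056 (adjusted p = 0.395). Both were named after their values were seen. MXD4-AS1 and MAX-AS1 were not analysed here.

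Patterns over the 6 libraries were compared by the root mean square distance of log2 normalized counts, each gene centred on its own mean, among 12037 other genes with a mean of at least 100 normalized counts. The nearest genes to MYC were EIF4G1 (distance 0.0151), a scaffold of translation initiation, USP47 (0.0165) and DUSP14 (0.0168). The nearest to MXI1 were THSD4 (0.0281), KRT19 (0.0694) and ADAM8 (0.0716). THSD4 had 1255 to 1312 normalized counts in siControl and 7973, 6339 and 3989 in siPVT1, the same order of libraries as MXI1. These distances describe 6 libraries in 2 groups and are given with no test.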

How the data were processed

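RNA of SK-OV3 cells was sequenced in 6 libraries, 3 siControl and 3 siPVT1, grouped by the sample titles. Single-end reads were aligned and quantified by the authors against GENCODE transcripts (STAR 2.7.3a, Salmon 0.14.1 and GRCh38.p13 in the submitters' processing notes). The deposited values are estimated counts for each gene, rounded and not normalized. The strand setting is not given in the sources used here, and Salmon divides reads between overlapping transcripts by estimation. Library sizes were 28383171 to 35059576, and precision rests on 3 libraries a group. That replicates come from separate cultures is not stated, so p-values measure the spread between these libraries.

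TMM factors came from the whole table. Genes reaching 5 normalized counts in 3 or more libraries (19008 of 59653) were tested with edgeR 4.0.16 in R 4.3.3, quasi-likelihood, with the siRNA as the only term. The SE is the size of the log2 fold change divided by the root of its F statistic. DESeq2 1.42.0 was an alternative. The tests were first tried on simulated data with far fewer changed genes than were called here, which cannot check them under so broad a change. Positions and lengths came from GENCODE release 44. Named genes were all members, PVT1, up to 3 higher and 3 lower genes past both thresholds per list with the smallest p-values, MGA, MLXIP, MLXIPL, TXNIP, ARRDC4 and the 3 genes nearest in pattern to MYC and to the most changed member. Some listed genes are counted but not reported singly here. The members and lists were chosen with earlier results of these data known. Alternatives were DESeq2, its size factors, total-count scaling, no filter, filterByExpr, a replicate block, leaving out single libraries, and other lengths.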

Additional observations from a re-analysis of the deposited data

How the results depend on the processing

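Over the 12 alternatives, 119 of 120 values of the 9 tested members and PVT1 kept their direction and their side of the adjusted p threshold, and the exception was MLX without siPVT1 replicate 3 (0.14, adjusted p = 0.0433 with edgeR). Scaling by the total count moved the median of all genes from 0.0014 to −0.15 and the share of calls that were higher from 51.0% to 39.4%. With it, 1 member (MXI1) in place of 2 was higher past both thresholds, and the numbers higher were 2 for coactivators, 7 for corepressors and 4 for genes of MYC stability, with 2 namesake genes lower. Its list medians were 0.59 for members, −0.67 for E-box factors, −0.24 for coactivators, 0.091 for corepressors, −0.25 for stability, −0.49 for neighbours and −0.38 for namesakes. With no filter the median of all genes was −0.067, and with filterByExpr, which tested fewer neighbours, that of neighbours was −0.058. Levels near 3 counts, as for MYCN, limit what this depth can show.

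The replicate block was fitted as an alternative. Deviations of same-numbered libraries correlated between −0.0324 and 0.0205, so the numbers are not taken to pair the libraries. The replicate block gave 5296 higher and 5150 lower genes and changed no call among the members.

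Without 1 library at a time, the median of all genes lay between −0.031 and 0.022, that of E-box factors between −0.55 and −0.41, of stability genes between −0.15 and −0.091, of genes MYC activates between −0.94 and −0.50, of genes MYC represses between −0.32 and −0.033 and of neighbours between −0.36 and −0.23. The number of higher coactivators lay between 3 and 5 (3 without siPVT1 replicate 2), of lower stability genes between 4 and 10 (4 without siPVT1 replicate 2, 5 without siControl replicate 1 or 3) and of lower genes that MYC represses between 3 and 5 (5, and the median −0.32, without siPVT1 replicate 1). MLX lay between 0.11 and 0.19. Of the other genes named by rule, cell type markers and nearest-pattern genes aside, only TERT lost its adjusted p call in any of the 12 alternatives, in 6 of them, while CREBBP, FBXO32, SAP30 and CASC8 kept theirs but came under the fold threshold in 2, 4, 2 and 1. The cause of these shifts was not tested.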
